A study of Mus musculus with 2 samples.

Results

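The thrombospondins and the CCN proteins are secreted matricellular proteins, which sit in the extracellular matrix and tune adhesion and growth factor signalling rather than build fibres. Their 10 genes, *Thbs1*, *Thbs2*, *Thbs3*, *Thbs4*, *Comp*, *Cyr61*, *Ctgf*, *Nov*, *Wisp1* and *Wisp2*, were taken by symbol from the gene lists of single-cell libraries of the mouse coronal suture, the fibrous joint between the frontal and parietal bones. All 10 were found in both lists, among 31053 genes in the E15.5 list and 27998 in the E17.5 list. Each stage is 1 library of wild type C57/BL6 embryos captured with 10x Chromium 3′ chemistry, in which unique molecular identifiers (UMIs) count RNA molecules. The E15.5 library came from 10 pooled sutures digested with collagenase II and dispase and cleared of dead cells with a kit. The E17.5 library joined 3 batches made from 16 sutures of 2 litters, digested with collagenase IV and sorted by flow cytometry. Stage, enzyme, sorting, embryos and the version of the counting software differ together and cannot be told apart. With 1 library a stage, and with 2 of the 3 E17.5 batches from the same litter, no test between stages was possible and no p-value is given.

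The levels below are CPM, the UMIs of a gene summed over all cells of a cluster, divided by all UMIs of the cluster and scaled to 1000000, with 95% exact Poisson intervals that cover counting error only. The clusters are the 15 labelled by the authors on these same cells, namely osteogenic OG1 to OG4, proliferating osteogenic PO1 and PO2, ligament-like LIG, ectocranial EC1 to EC4 and meningeal MG1 to MG4. A level in 1 cluster against the others is therefore a description. A median of 8510 UMIs was counted in the 5335 labelled cells of the earlier library, and 12302 in the 6830 of the later one. Only MG1 and PO2 were small in the earlier library, at 28 and 35 cells. Barcodes of the E17.5 matrix carry a suffix of 1, 2 or 3, as the software writes for captures that were joined. Their values show the spread between captures. Which batch each suffix stands for is not given, so litter and capture cannot be told apart in this spread. At E17.5, no MG1 cell carried suffix 1. The E15.5 UMI counts per cell differ from those in the authors' table of labels, so the E15.5 matrix may be another count of the library than the one that was labelled.

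THBS1 and THBS2 assemble as trimers with a procollagen domain and type 1 repeats, and THBS1 can release TGF-β from its latent complex. THBS3, THBS4 and COMP assemble as pentamers that lack those repeats and are known from tendon, cartilage and bone. The CCN proteins CYR61 (CCN1), CTGF (CCN2), NOV (CCN3) and WISP1 (CCN4) share modules that bind IGF, BMP and TGF-β family ligands, Wnt receptors and integrins, whereas WISP2 (CCN5) lacks the last, C-terminal module. *Cyr61* and *Ctgf* are textbook targets of YAP and TAZ, which act through the TEAD factors, and both are also induced quickly by serum and stress. In skeletal tissue CTGF is best known from cartilage, where it promotes matrix synthesis.

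The promoters of *Cyr61*, *Thbs2* and *Thbs4* are shown because the means of these genes over clusters differed at least 2-fold between the libraries. They also had an entry in the RefSeq table used. That table matched 4 of the 10 genes, with *Thbs3* as the fourth. Each sequence runs 5′ to 3′ on the strand of the gene, from 250 bases before its start to 50 bases after it, on build GRCm38.p6. Capitals mark GGAATG, the core of the TEAD site. They also mark TATAAA, the letters of a TATA box. Both were searched on either strand, so that a match on the other strand appears as its reverse complement. *Cyr61* (table symbol Ccn1) is on chr3:145649936-145650235, minus strand, *Thbs2* on chr17:14694213-14694512, minus strand, and *Thbs4* on chr13:92794769-92795068, minus strand.

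Cyr61: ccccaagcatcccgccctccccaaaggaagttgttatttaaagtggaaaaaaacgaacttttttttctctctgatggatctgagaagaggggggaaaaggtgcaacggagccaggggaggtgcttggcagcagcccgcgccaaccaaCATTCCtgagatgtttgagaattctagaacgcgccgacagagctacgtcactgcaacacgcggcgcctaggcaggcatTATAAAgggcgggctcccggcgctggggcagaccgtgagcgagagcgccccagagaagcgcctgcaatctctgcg

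Thbs2: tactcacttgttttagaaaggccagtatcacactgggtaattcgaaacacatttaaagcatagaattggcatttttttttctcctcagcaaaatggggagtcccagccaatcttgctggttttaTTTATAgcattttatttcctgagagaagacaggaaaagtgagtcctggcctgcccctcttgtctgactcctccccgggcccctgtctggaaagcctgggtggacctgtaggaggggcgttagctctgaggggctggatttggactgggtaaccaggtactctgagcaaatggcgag

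Thbs4: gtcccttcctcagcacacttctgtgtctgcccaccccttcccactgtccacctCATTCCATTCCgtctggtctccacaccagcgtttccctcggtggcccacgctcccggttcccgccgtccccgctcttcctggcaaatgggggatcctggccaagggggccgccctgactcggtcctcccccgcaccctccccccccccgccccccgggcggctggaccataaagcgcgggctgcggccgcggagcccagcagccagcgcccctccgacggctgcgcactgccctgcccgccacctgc

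The *Cyr61* promoter holds 1 TEAD core that begins 103 bases before the start and a TATA box that begins 25 bases before it. The *Thbs4* promoter holds 2 TEAD cores, which share 1 base and begin 197 and 192 bases before the start, and the *Thbs2* promoter holds only a TATAAA of the other strand, which begins 126 bases before the start. In all 32851 promoters of the table, 14.7% hold the TEAD core and 13.6% the TATA box on either strand. The AP-1 site TGACTCA, held by 5.2% of promoters on either strand, was in none of the 4. Such matches describe letters and are not measured binding sites.

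Among the 10 genes, 6 were at least 2-fold above the other labelled cells in at least 1 cluster in both libraries, against 20.7% of the 12150 genes with at least 50 UMIs in each library. These are *Thbs1*, *Thbs2*, *Thbs4*, *Ctgf*, *Nov* and *Wisp2*, in 8 of 150 combinations of gene and cluster. The *Thbs4* combination, in EC3, rests on 3 UMIs at E17.5. The other 7 lay in LIG, EC2, EC4, MG1 and MG2. The highest cluster was the same in both libraries for 6 of the 10 genes, against 32.0% of all genes. In single clusters the same limit was passed by 0.757% of all genes in LIG, 2.43% in EC2, 1.33% in EC3, 1.26% in EC4, 1.45% in MG1 and 2.4% in MG2, where 1, 1, 1, 1, 2 and 2 of the 10 genes passed it. In the opposite direction, 31 combinations from 8 of the 10 genes were at least 2-fold below the other cells in both libraries, 9 of them from *Nov*, against 31.8% of all genes with such a cluster. Some of them rest on few UMIs. The 4 of *Thbs4* have at most 5 UMIs a library, with a fold interval that held 1 in at least 1 library. *Wisp2* in PO2 had 0 UMIs at E15.5.

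**Figure D1:**
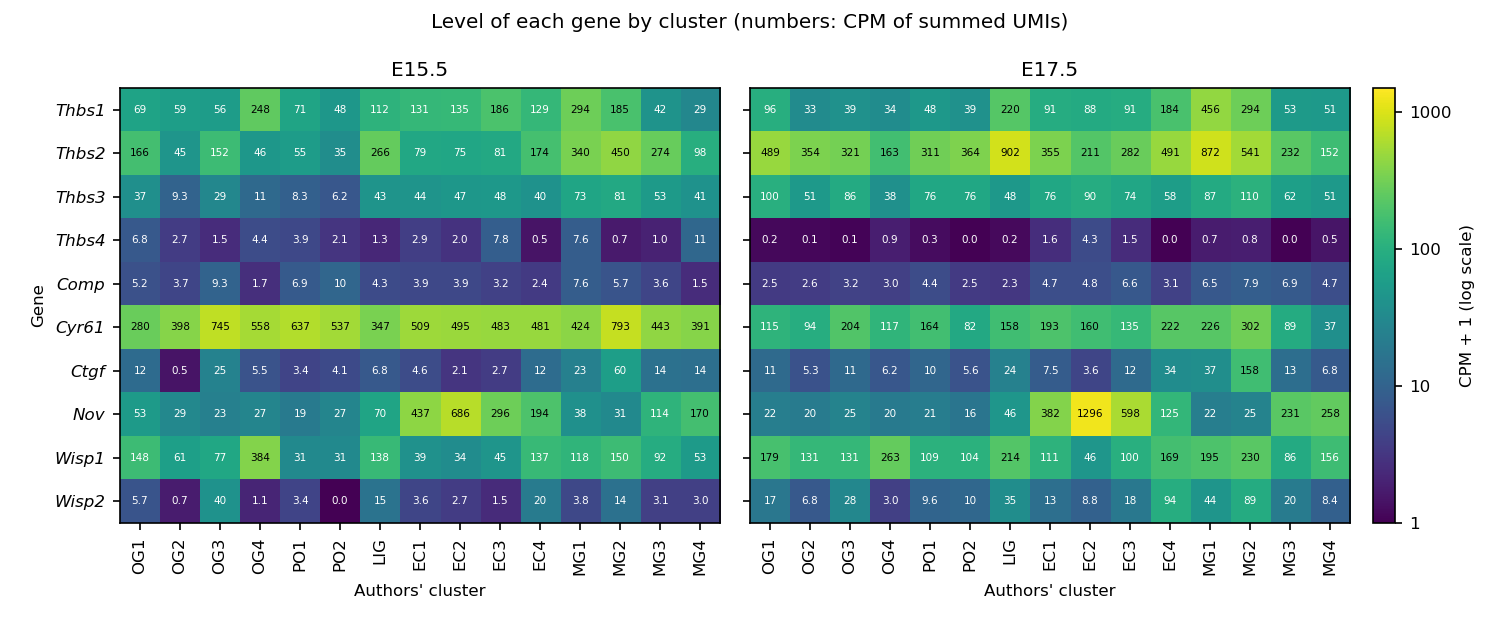
Levels of the 10 genes in CPM of summed UMIs, printed in each cell and coloured on a log scale, in the authors' 15 clusters at E15.5 (left) and E17.5 (right). *Nov* peaks in EC2 and *Ctgf* in MG2 in both libraries, *Cyr61* is lower in every column at E17.5, and *Thbs4* and *Comp* stay at or under 10.5 CPM in every cluster.

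*Thbs1* (ENSMUSG00000040152, GRCm38 chromosome 2, 118111876 to 118127133) was highest in MG1 in both libraries, with 294 CPM (232 to 367) from 77 UMIs in the earlier and 456 CPM (438 to 474) in the later one. These levels were 2.25 and 4.80 times those of all other labelled cells. The E15.5 fold rests on 28 cells and was 1.44 with cells thinned to 3000 UMIs, 1.88 as a mean over cells and 1.85 without high doublet scores, each under the 2-fold limit. At E17.5 the captures with suffixes 2 and 3 gave 470 and 444 CPM. MG2 followed at E17.5 with 294 CPM and LIG next with 220 CPM, and the intervals of these 3 clusters did not overlap. In suffix 1 alone MG2 had 224 CPM (200 to 251) and LIG 215 CPM (169 to 270), which overlapped. With suffixes 2 and 3, MG2 had 322 and 322 CPM against 212 and 228 CPM in LIG. At E15.5, the interval of MG1 overlapped that of OG4, the mature osteoblast cluster, which had 248 CPM (225 to 272). At E17.5 OG4 was among the lowest clusters, at 33.7 CPM, and its 3 captures gave 36.3, 32.8 and 33.6 CPM. Osteoclast-like cells outside the labelled clusters, which are of blood origin, had 19.0 CPM at E15.5 and 22.4 CPM at E17.5. They are given here as a rough guide to free RNA, which was not itself measured, and their UMIs may have other sources.

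*Thbs2* (ENSMUSG00000023885, chromosome 17, 14665500 to 14694235) was highest in MG2 in the earlier library and in LIG and MG1 in the later. In LIG it had 266 CPM (250 to 282) in the earlier library and 902 CPM (882 to 921) in the later, which were 2.17-fold and 2.44-fold above the other cells. In MG1 it had 340 CPM (273 to 418) and 872 CPM (847 to 897), 2.56-fold and 2.21-fold above the others, and its intervals in LIG and MG1 overlapped at E17.5. The study itself lists *Thbs2* among the markers of LIG from these cells, so that level is no independent evidence. MG2 had 450 CPM (426 to 475) at E15.5, and at E17.5 it came after LIG and MG1, with 541 CPM. MG3 came after MG2 and MG1 at E15.5 with 274 CPM, 2.14-fold above the other cells, and its interval overlapped that of LIG. A *Thbs2* UMI was found in 99.7% of LIG cells at E17.5. The 3 captures gave 1025, 891 and 902 CPM in LIG.

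Of the pentameric genes, *Thbs4* and *Comp* were low in the labelled clusters and *Thbs3* was at intermediate levels. *Thbs3* (ENSMUSG00000028047, chromosome 3, 89215180 to 89226837) was highest in MG2 in both libraries, with 80.5 CPM (70.6 to 91.4) and 110 CPM (101 to 120), 2.096-fold and 1.548-fold above the other cells. Its interval in MG2 overlapped that of MG1 at E15.5 and of OG1 at E17.5. In the earlier library its lowest clusters were PO2, PO1, OG2 and OG4, from 6.20 to 11.1 CPM, and at E17.5 the lowest level was 37.9 CPM, in OG4. *Thbs4* (ENSMUSG00000021702, chromosome 13, 92751590 to 92794818) had 174 UMIs over all labelled cells of the earlier library and 67 over those of the later. Its EC3 level was 7.83 CPM from 84 UMIs at E15.5 and 1.52 CPM from 3 UMIs at E17.5, with fold intervals of 2.42 to 4.49 and 0.433 to 6.59, so a higher level in EC3 was not detectable in the later library. EC2 had 18 UMIs at E15.5, 1.95 CPM, and 34 at E17.5, 4.28 CPM, the highest level of that library. The highest level at E15.5 was 10.5 CPM in MG4, from 7 UMIs. *Comp* (ENSMUSG00000031849, chromosome 8, 70373558 to 70382066) ranged from 1.51 to 10.3 CPM at E15.5 and later from 2.28 to 7.85 CPM, and the osteoclast-like cells had 7.31 and 3.09 CPM. The highest cluster at E17.5, MG2, was 2.17-fold (1.51 to 3.05) above the other cells, and at E15.5 it was 1.47-fold (0.837 to 2.42).

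*Ctgf* and *Wisp2* were both at least 2-fold higher in MG2 in both libraries. *Ctgf* (ENSMUSG00000019997, chromosome 10, 24595442 to 24598683) was highest in MG2, with 60.0 CPM (51.5 to 69.5) from 178 UMIs at E15.5 and 158 CPM (147 to 170) from 765 UMIs at E17.5. These levels were 10.6-fold and 12.0-fold above the other cells, and no other cluster had an interval that reached them. A *Ctgf* UMI was present in 25.7% and 49.9% of MG2 cells, against 2.27% and 8.03% of the deeper osteoclast-like cells. The captures spread beyond counting error, at 94.5, 154 and 209 CPM. The study uses *Ctgf* as a marker of MG2, so this peak too was known from these cells.

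*Wisp2* (ENSMUSG00000027656, chromosome 2, 163820861 to 163833146) was above the other cells in EC4, the layer over the suture, with 19.8 CPM (15.7 to 24.6) in the earlier library and 94.4 CPM (85.6 to 104) in the later. The folds were 3.69 and 4.31. In MG2 it had 14.1 CPM from 42 UMIs and 88.8 CPM from 430 UMIs, with folds of 2.32 and 4.05, and the intervals of EC4 and MG2 overlapped at E17.5. The 3 captures gave 78.8, 95.5 and 106 CPM in EC4 and 53.5, 114 and 93.3 CPM in MG2. The highest level at E15.5 was in OG3, with 40.2 CPM (30.0 to 52.7) from 52 UMIs, 7.10-fold above the other cells, whereas at E17.5 OG3 had 28.2 CPM and a fold of 1.13.

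*Nov* (ENSMUSG00000037362, chromosome 15, 54745702 to 54754039) was highest in the ectocranial clusters EC1 to EC3. Its level in EC2, a hypodermal cluster, was 686 CPM (669 to 703) at E15.5, or 4.24-fold that of the other cells, and later 1296 CPM (1271 to 1322), or 20.1-fold. The 3 captures gave 1339, 1311 and 1249 CPM there, and 99.7% of EC2 cells at E17.5 had a UMI. EC1 and EC3 followed in both libraries, EC1 with 437 and 382 CPM and EC3 with 296 and 598 CPM. The EC1 value differed between the captures, at 617, 250 and 224 CPM. The ectocranial cluster EC4 had 194 and 125 CPM, 0.724-fold and 0.726-fold of the other cells, and came below MG3 and MG4 at E17.5. The 6 osteogenic clusters, LIG, MG1 and MG2 ranged from 19.1 to 70.4 CPM at E15.5 and later from 16.1 to 46.3 CPM, and the osteoclast-like cells had 26.01 and 15.46 CPM. Within the meninges *Nov* was higher in MG3 and MG4 than in MG1 and MG2, the opposite of *Ctgf*, with 114 and 231 CPM in MG3 and 170 and 258 CPM in MG4.

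*Wisp1* (ENSMUSG00000005124, chromosome 15, 66891320 to 66923201), a Wnt target known from bone, was highest in the osteoblast cluster OG4 in both libraries. Its level there was 384 CPM (356 to 414) at E15.5, or 5.24-fold that of the other cells, and later 263 CPM (253 to 273), or 1.79-fold, so the second library stayed under the 2-fold limit. The captures gave 242, 254 and 280 CPM. *Cyr61* (ENSMUSG00000028195, Ccn1 in the annotation, chromosome 3, 145646976 to 145649981) was found in all clusters, from 280 to 793 CPM in the earlier library and from 37.4 to 302 CPM in the later. MG2 was the highest cluster in both libraries, with 793 CPM (762 to 826) and 302 CPM (287 to 318), 1.68-fold and just under 2.00-fold above the other cells. OG3 overlapped MG2 at E15.5, with 745 CPM.

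**Figure D2:**
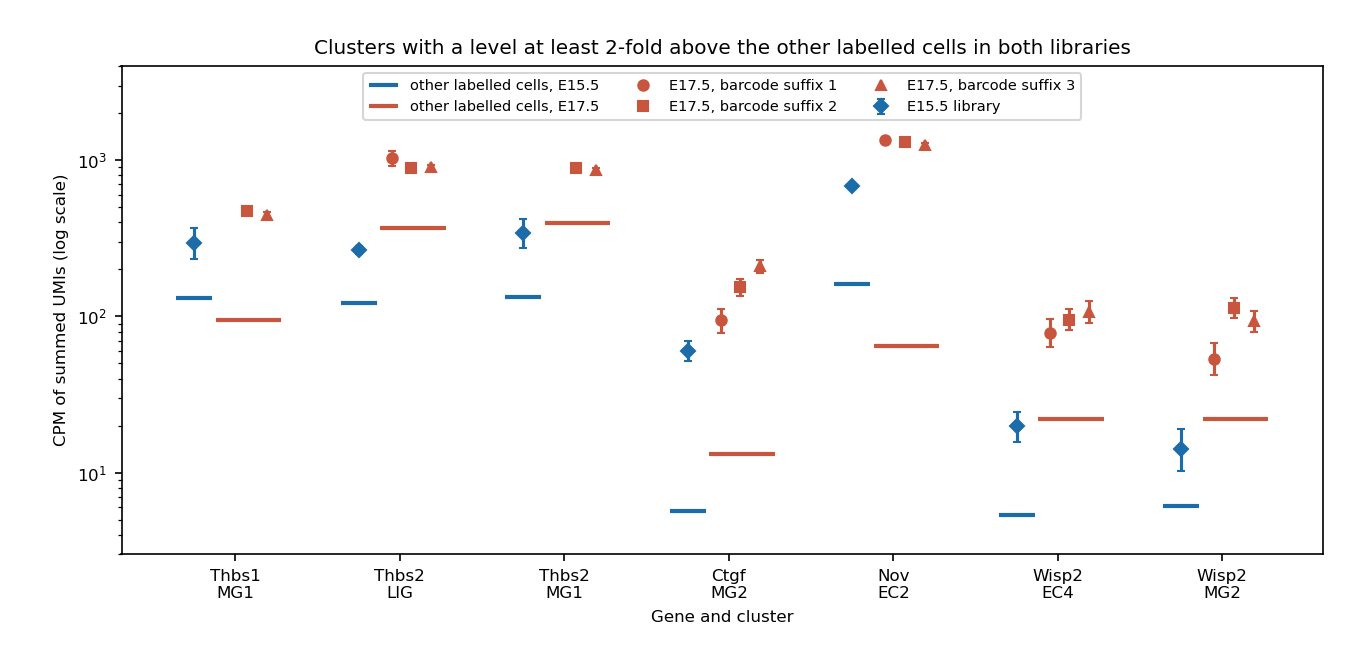
CPM (log axis) for the 7 combinations of gene and cluster with at least 2-fold higher levels in both libraries, without *Thbs4*. Diamonds are the E15.5 library, circles, squares and triangles the 3 barcode suffixes at E17.5, bars the 95% Poisson intervals and short lines the other labelled cells, and every point lies above its line, from 14.1 CPM (*Wisp2* in MG2, E15.5) to 1339 CPM (*Nov* in EC2).

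Across the 13 clusters with at least 50 cells in each library, the paired patterns of the genes were compared as correlations of log2(CPM + 1), which are descriptions over clusters that share libraries. *Ctgf* and *Wisp2* had r = 0.70 in the earlier and 0.86 in the later library, and *Thbs2* had 0.80 and 0.62 with *Ctgf*. *Nov* and *Wisp1* ran in opposite directions, at -0.43 and -0.70. *Thbs1* and *Thbs2* had r = -0.05 at E15.5 and 0.72 at E17.5. The 2 YAP targets *Cyr61* and *Ctgf* had only 0.34 and 0.56.

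The genes most like a member, by the lower of its r values in the libraries, were *Mfap5*, *Rab7b* and *Calcrl* for *Nov*, each with at least 0.94 in both. *Ptprd*, *Zfp521* and *Tenm3* were nearest to *Thbs2*, with lower values of 0.90, 0.88 and 0.87. For *Ctgf*, *Gpha2* (0.85 and 0.86) led, and *Neo1* and *Ltbp3*, which binds latent TGF-β, followed. *Wisp1* was nearest to *Myo1e* (0.82 and 0.83), *Thbs3* to *H19* (0.88 and 0.84), *Thbs1* to *Ick* (0.82 and 0.77) and *Wisp2* to *Setbp1* (0.75 and 0.79). For *Cyr61* no gene went above 0.61 in both, and the nearest to *Thbs4* and *Comp* rest on few UMIs. The genes named here were picked as the highest of 9862 compared over 13 clusters. The r expected of such picks was not computed.

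The CPM averaged over the same 13 clusters was at least 2-fold higher at E17.5 for 2 of the 10 genes, against 3.61% of all genes tested, and at least 2-fold lower for 2, against 6.86%. The median log2 ratio of E17.5 over E15.5 was 0.49 for the 10 genes and 0.02 for all genes. *Wisp2* and *Thbs2* were higher and *Cyr61* and *Thbs4* lower. These are differences between 2 libraries, not tested differences between stages.

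*Thbs2* had a mean of 151 CPM at E15.5 and 369 CPM at E17.5, a ratio of 2.45 (2.37 to 2.53, counting error), and was higher in 12 of the 13 clusters. The widest ratio was 7.94 in OG2, from 44.6 to 354 CPM, and the lowest was 0.847 in MG3. With each cell thinned to 3000 UMIs, which left out 160 shallower cells, all at E15.5, 44.2% of LIG cells in the earlier library against 89.0% in the later had a *Thbs2* UMI, against 74.6% and 99.7% unthinned. The osteoclast-like cells moved the same way, from 13.003 to 70.71 CPM. Their share with a UMI went from 10.0% to 62.0%, at median depths of 15600 and 18772 UMIs. The part of free RNA in the ratio was not tested. *Wisp2* had means of 8.79 and 27.0 CPM, a ratio of 3.08 (2.68 to 3.54), and was higher in 10 clusters and lower in OG3. In osteoclast-like cells it had 2 UMIs at E15.5 and 10 at E17.5.

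*Cyr61* had means of 505 and 153 CPM, a ratio of 0.303 (0.295 to 0.311), and was lower at E17.5 in all 13 clusters, with ratios from 0.0955 in MG4 to 0.462 in EC4. In MG2, thinned to 3000 UMIs, 73.9% of cells had a UMI at E15.5 and 37.2% at E17.5. Of 16 genes known to be induced within minutes by tissue dissociation, 9 were at least 2-fold lower and 1, *Jund*, at least 2-fold higher at E17.5, with a median log2 ratio of -1.03. *Fos* had a ratio of 0.497, *Jun* 0.236, *Atf3* 0.117, *Nr4a1* 0.144 and *Zfp36* 1.31. The summed CPM of the list was lower at E17.5 in 13 of 13 clusters, with ratios from 0.297 to 0.794. The E15.5 values of the list ranged from 2191 CPM in MG3 to 6299 CPM in PO1, and those at E17.5 from 706 CPM in MG4 to 4819 CPM in OG3. Over the 15 clusters, *Cyr61* had Pearson r = 0.52 with the list on log2 values in the earlier library and 0.49 in the later. The Spearman rank correlations were 0.55 and 0.268. The part of the dissociation response in the *Cyr61* difference was not tested.

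**Figure D3:**
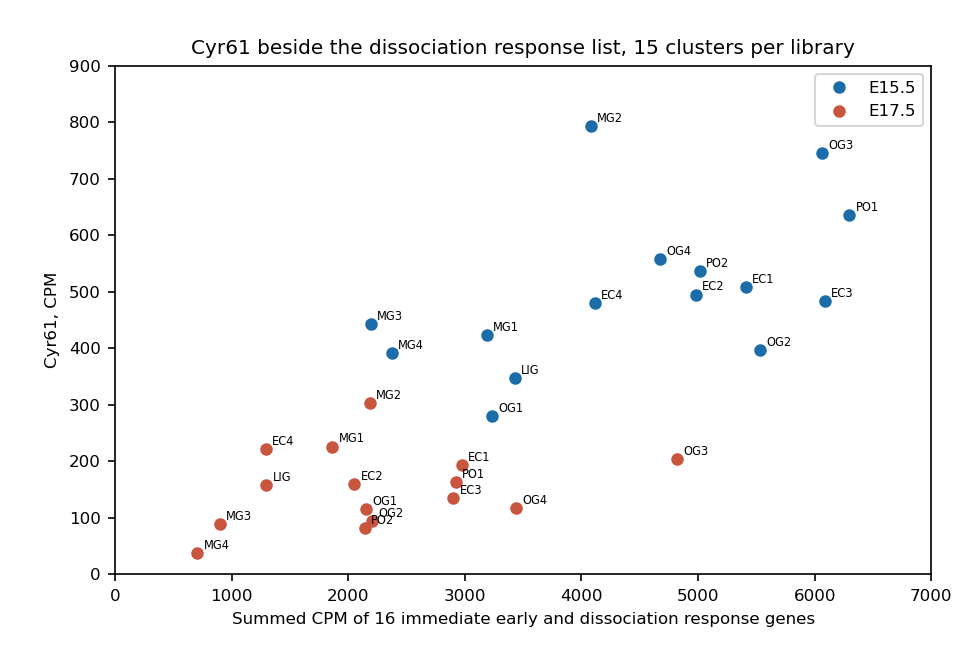
*Cyr61* CPM (vertical axis) against the summed CPM of 16 immediate early and dissociation response genes (horizontal axis) in the 15 clusters of each library. The E15.5 points lie to the right of and above most E17.5 points, and MG2 stands high in both, at 793 and 302 CPM.

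*Thbs4* had the lowest ratio of the set, 0.227 (0.156 to 0.331), from means of 3.54 and 0.804 CPM. That ratio rests on 174 and 67 UMIs, with 7 clusters lower, 1 (EC2) higher and 5 with intervals that held 1. The remaining genes lay within 2-fold as means. *Ctgf* had a ratio of 1.86 (1.65 to 2.11), with 6 clusters higher and 1 lower, and 2.30 over all labelled cells pooled. *Thbs3* had 1.88 (1.76 to 2.00), or 2.38 with barcode suffix 1 alone, with 10 clusters higher and none lower, and in PO1 its level was 8.32 CPM at E15.5 and 76.2 CPM at E17.5. *Wisp1* had 1.39 and was higher in 11 clusters and lower in OG4, its highest cluster. *Nov* had 1.43 as a mean of clusters, but 0.652 over all labelled cells pooled, and its high cluster EC3 held 1185 cells in the earlier and 194 in the later library. *Thbs1* had 0.911, with 5 clusters higher and 7 lower, from 0.136 in OG4 to 1.97 in LIG. *Comp* had 1.03 with intervals that held 1 in 11 clusters.

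**Figure D4:**
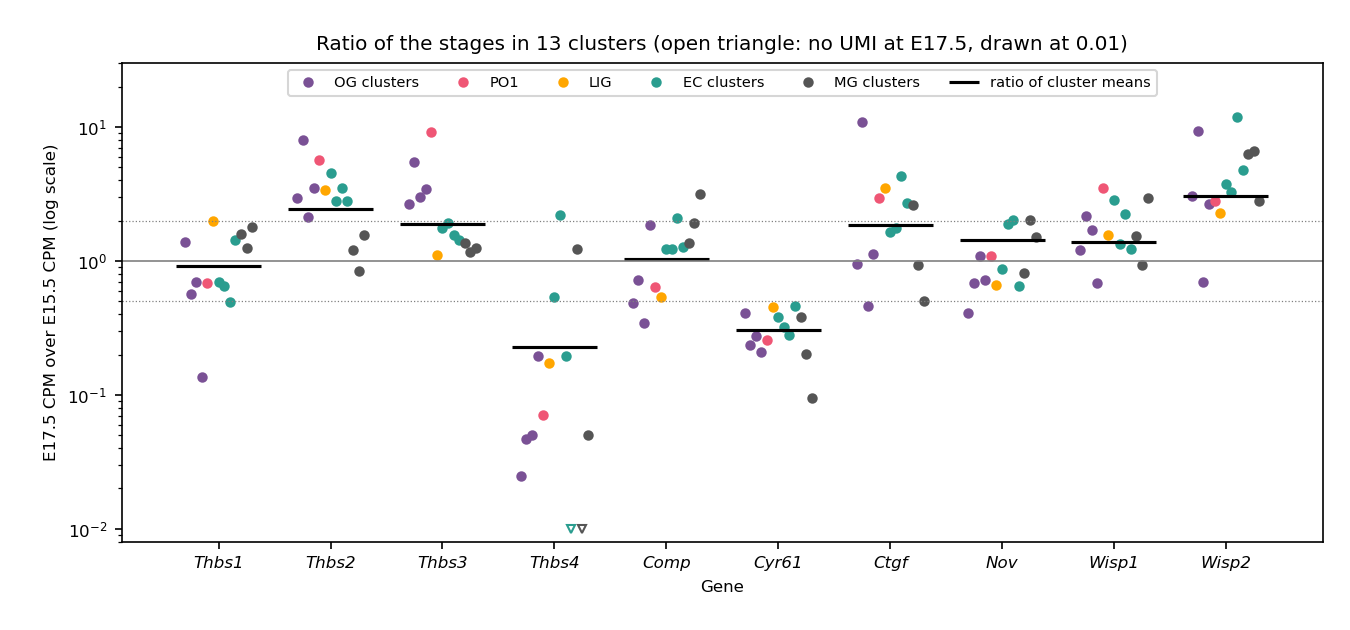
Ratio of E17.5 to E15.5 CPM (log axis) of each gene in 13 clusters, coloured by cluster family, with the ratio of cluster means as a line. All *Cyr61* points lie between 0.0955 and 0.462, and the *Thbs2* points lie above 1 except MG3 at 0.847.

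Of 12 receptors and partners of these proteins, 3 were at least 2-fold higher in a cluster in both libraries, which is near the 20.7% of all genes. The integrin subunit *Itgb3* was higher in EC2, where *Nov* peaked, at 2.35-fold and 7.25-fold. *Sdc4*, a syndecan, was higher in EC1 and the scavenger receptor *Lrp1* in MG3. *Cd47*, the THBS1 receptor, was spread over the clusters, with its highest lower fold, 1.34, in EC4, and *Cacna2d1* reached 1.92 and 1.83 in LIG. *Itgb5* had a stage ratio of 3.22 and *Itga6* one of 0.384.

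None of the 5 measured genes of YAP, TAZ and the TEAD factors was 2-fold higher in a cluster in both libraries. *Yap1* had folds of 1.77 and 1.20 in MG2, the *Ctgf* peak, and a stage ratio of 1.10, and *Wwtr1*, which encodes TAZ, had 0.716. Of 18 measured YAP and TAZ target genes outside the set, 6 were higher in at least 1 cluster, against 20.7% of all genes, and the clusters were EC2, EC3, EC4, LIG, MG3, MG4 and OG3, with none in MG2. *Igfbp3* in EC4 was the steepest, at 6.59-fold and 19.2-fold. By stage, 2 of these targets were higher, *Igfbp3* (4.10) and *F3* (2.13), and 2 were lower, *Gadd45a* (0.415) and *Nt5e* (0.289), with a median log2 ratio of -0.24.

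Of 12 other matricellular genes, 9 were at least 2-fold higher in a cluster in both libraries, against 20.7% of all genes. *Spp1*, osteopontin, was highest in OG4 at 62.5-fold and 10.2-fold, *Tnc* in OG3 at 13.96-fold and 2.25-fold, *Tnxb* in EC2 and *Smoc1* in MG4, and *Fbln5* was highest in LIG, where *Thbs2* was also high, at 2.45-fold and 3.00-fold. All 7 tendon and ligament genes passed the limit, against the same 20.7%, among them *Tnmd* and *Mkx* in LIG and *Scx* in MG2. Of 11 cartilage matrix genes 9 passed, all in MG1 or MG2, where *Thbs1*, *Ctgf* and *Thbs2* were also high, such as *Matn4* in MG2 at 12.9-fold and 5.75-fold. The study names *Scx*, *Tnmd*, *Mkx*, *Chodl* and *Tac1* for LIG from these same cells. It also names *Matn4*, *Col2a1* and *Acan* for MG1 or MG2. Such genes were apt to pass, so the counts for these 2 lists are descriptions and no independent evidence. By stage, 8 of the 11 cartilage genes were at least 2-fold lower at E17.5, against 6.86% of all genes, with a median log2 ratio of -1.46, whereas *Ctgf* was not. *Matn1* and *Matn3* had highest lower folds of only 1.34 and 0.966 in a cluster, and stage ratios of 0.124 and 0.191. The part of free RNA in the stage ratios of this list was not tested. *Wisp3*, the remaining CCN gene, had 20 and 8 UMIs and was not tested.

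Cells outside the 15 clusters were clustered separately and named from markers that do not include the 10 genes. In chondrocyte-like cells, *Comp* had 214 CPM (206 to 223) in 1057 cells at E15.5 and 740 CPM (705 to 777) in 190 cells at E17.5, against at most 10.3 CPM in any labelled cluster. *Cyr61* had 1478 and 1026 CPM there, *Ctgf* 61.2 and 212 CPM, *Thbs1* 429 and 349 CPM and *Thbs3* 104 and 140 CPM. *Thbs2* had 16.6 and 83.5 CPM and *Nov* 11.7 and 21.2 CPM, near the osteoclast-like levels. The chondrocyte-like cells at E15.5 fell into 4 clusters, and *Comp* ranged from 130 to 535 CPM among them. The highest, cluster 10, with *Omd*, *Cytl1*, *Comp* and *Gdf5* among its leading genes, also had 234 CPM of *Thbs3*. None of the 4 held a listed chondrocyte marker among its 10 leading genes, and 1 of them was led by *Ttr* and *Rlbp1*.

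*Comp* was also high in unnamed clusters led by *Prg4* and *Clu*, with 251 CPM at E15.5 and 592 CPM at E17.5. *Cyr61* in pericyte-like cells was 490 and 256 CPM, and *Ctgf* was 44.8 and 12.4 CPM. *Thbs1* was 262 CPM in a myeloid-like cluster of 135 cells at E15.5 and 290 CPM in an unnamed cluster of 69 cells at E17.5, both led by *S100a8*, *Hp* and class II genes, whereas the other myeloid-like clusters had 18.0 to 58.3 CPM. Of 220 osteoclast-like cells in the earlier library, 0 had a *Thbs4* UMI. That count allows up to 1.36% of such cells to hold a UMI, and it sets no limit on cells that express the gene.

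**Figure D5:**
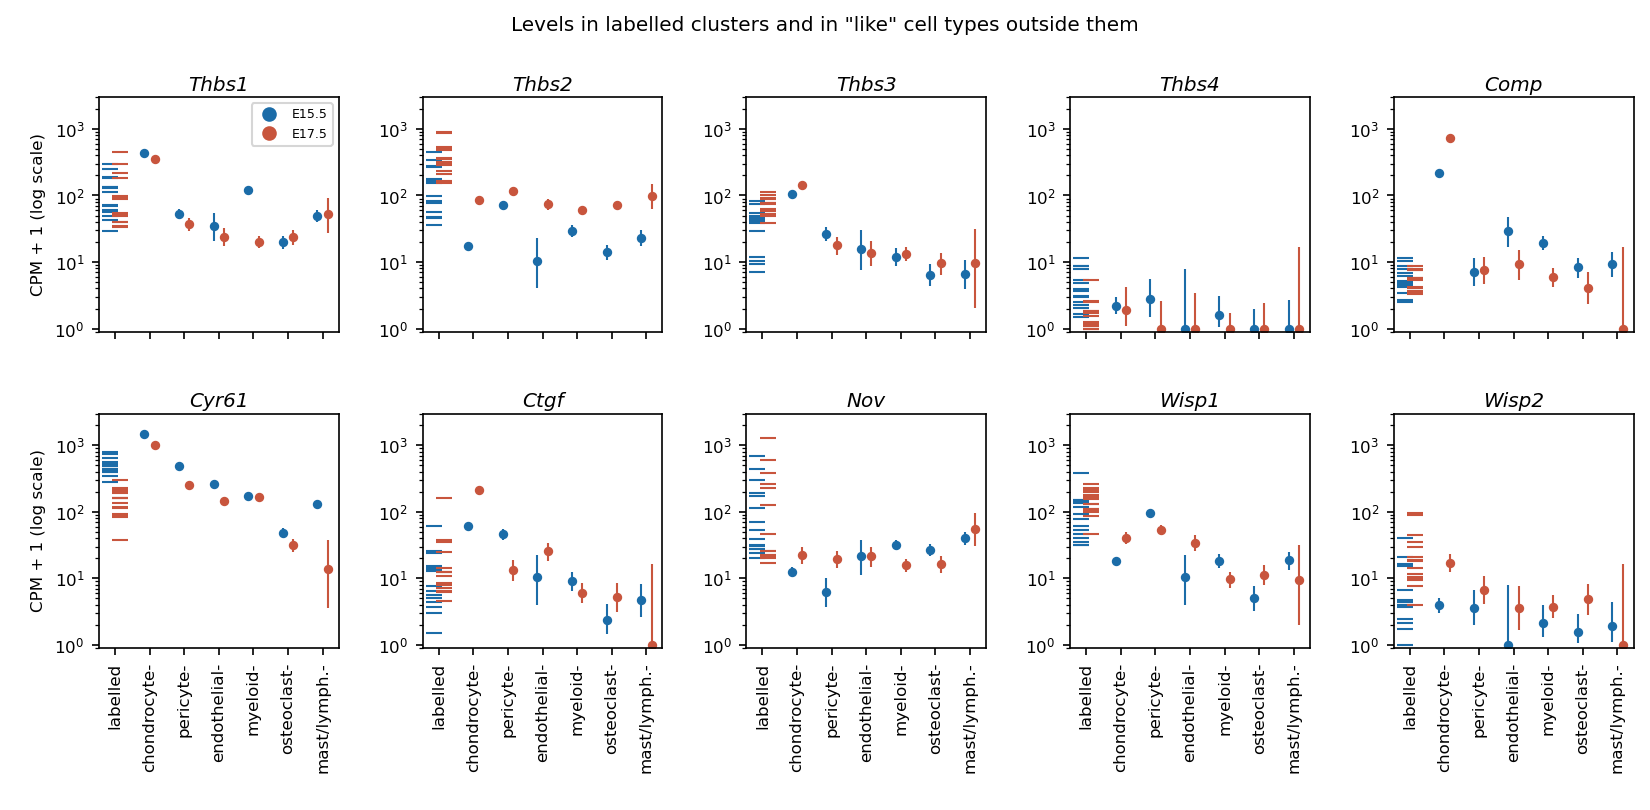
CPM + 1 (log axis) of each gene in the 15 labelled clusters (dashes) and in the named cell types outside them (points with 95% Poisson intervals), E15.5 in blue and E17.5 in red. *Comp* is high only in the chondrocyte-like cells among the types drawn, at 214 and 740 CPM, and *Nov* and *Wisp2* are highest in labelled clusters.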

How the data were processed

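Per the labels and file headers, the authors deposited 1 UMI count matrix per stage, unfiltered and not normalized, and a table with a cluster label and UMI count per cell. The authors state alignment and counting with Cell Ranger and analysis with Seurat 3.2.0, and the Cell Ranger version in their methods is earlier than the 3.1.0 written in the E15.5 matrix file. The UMI counts of the matrix equal those of the table for all 6830 labelled cells at E17.5 and for 0 of 5335 at E15.5, so the E15.5 matrix may be a recount of the labelled library. A further 5 labelled barcodes were not in the E15.5 matrix used, 93 labelled cells lie outside the limits below and were kept, and 94 barcode sequences are shared by the kept cells of both libraries.

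Counts were summed per cluster and divided by the total, with Python 3.11.15, numpy 2.4.6, scipy 1.17.1 and pandas 2.3.3. With 1 library a stage, no test was run. Poisson, conditional ratio and Clopper-Pearson intervals (95%) cover counting error only. A level is called at a limit of 2-fold in both libraries. Genes with at least 50 UMIs in each library were tested against that limit, and a gene compared with the members by correlation needed at least 200 UMIs in each library, a minimum not applied to the members themselves. Because 3′ UMIs count molecules, CPM was not divided by length. Cells outside the table (at least 1000 UMIs and 1000 genes, at most 7.5% mitochondrial and 3% Hbb or Hba UMIs) were clustered with scanpy 1.11.5 on 2000 variable genes, and the rule for naming a cluster without own markers among its top 10 genes was set after seeing the clusters. Doublet scores came from Scrublet, whose own threshold marked 392 of 8210 cells at E15.5 and under 0.5% at E17.5, where the authors had sorted cells against doublets, so marked cells were kept and cells from the 94th percentile of the scores up were left out in an alternative. The genes named are all 10 members, the 3 most similar genes to each, and list genes past a limit, with a few more for their role. The members and lists were chosen with earlier results of these data known. Intervals and ratios were run on simulated Poisson counts without spread between cells or captures. That run checks the code and cannot show how the intervals cover real spread. No column of per-sample values was left unmapped. Tables of cell barcodes alone were not used.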

Additional observations from a re-analysis of the deposited data

Results flagged for a closer look

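In 3 of the 150 combinations of gene and cluster the level changed sides between the libraries. Each was over 1.5-fold above the other labelled cells in 1 library and over 1.5-fold below them in the other, by the whole counting interval. The share of all genes that pass this rule was not computed, so the 3 have no background. The difference between the stages was not tested. *Thbs1* in OG4 was 1.95-fold of the other cells at E15.5, with 248 CPM, and 0.266-fold at E17.5, with 33.7 CPM, so the ratio of the folds was 0.137. *Thbs2* in MG3 went from 2.14-fold to 0.544-fold, a ratio of 0.254, although its level was 274 CPM at E15.5 and 232 CPM at E17.5, since the other cells were higher at E17.5. *Ctgf* in OG3 went from 2.89-fold to 0.510-fold, a ratio of 0.176, with 24.7 CPM from 32 UMIs and 11.3 CPM.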

How the results depend on the processing

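Shares of all genes were computed only at the 2-fold limit of the main setting, so the counts of genes and combinations here have no background. At a limit of 1.5-fold, 10 genes and 14 combinations of gene and cluster were called, and at 3-fold 3 genes and 3 combinations. Genes higher at E17.5 numbered 4 at 1.5-fold and 1 at 3-fold, and the 2 lower genes were *Cyr61* and *Thbs4* under all alternatives run. The other alternatives gave 4 to 7 genes and 6 to 9 combinations, and 2 or 3 genes higher at E17.5. Gained among these combinations were *Wisp1* in OG4 with size factors from median ratios and *Comp* in PO2 with thinning. *Thbs4* in MG4 was gained with suffix 1 alone and *Ctgf* in MG1 without suffix 2. *Thbs4* in EC3 at E17.5 went to 0 with cells thinned to 3000 UMIs and in barcode suffix 1 alone, and fell under the limit with the mean over cells (1.59), without high doublet scores (1.67) and without suffix 3 (1.29). *Thbs1* in MG1 was lost with thinning, with the mean over cells, without high doublet scores and in suffix 1, which holds no MG1 cell, so *Thbs2* in MG1 was lost there too. Of 282 single values recomputed, 208 stayed within the counting interval and 72 moved. The remaining 2, both of *Thbs4*, changed direction, which was counted only for values past the 2-fold limit. Under that limit, the stage ratios of *Nov*, *Thbs1* and *Comp* crossed 1 in some alternatives. *Nov* went from 1.43 to 0.652 with all cells pooled. *Ctgf* passed 2-fold by stage with suffix 3 alone (2.32), without suffix 2 (2.01), with thinning (2.21) and with all cells pooled (2.30), and *Thbs3* did with suffix 1 alone (2.38). No paired analysis was possible because each stage is 1 library and the labels carry no replicate numbers. With 28 cells, MG1 limits the E15.5 values.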
